A study of Caenorhabditis elegans with 2 samples.

Results

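The genes described here encode the proteases that cut Notch receptors in the nematode Caenorhabditis elegans. They are 7 of 19973 annotated protein-coding genes and were chosen by name: the ADAM protease genes sup-17 and adm-4, the presenilin genes sel-12 and hop-1, and aph-1, aph-2 and pen-2, which encode the other subunits of gamma-secretase. Occupancy by LAG-1, the DNA-binding protein of the Notch pathway, was measured at each of them by chromatin immunoprecipitation and sequencing (ChIP-seq). The worms were of strain RW12314, whose allele st12314 carries the insertion lag-1::TY1::EGFP::3xFLAG on chromosome IV, made with CRISPR. Both replicates were whole worms, bleached and starved at the L1 stage for synchrony and taken as young adults at 62 hours. The precipitation used an antibody to GFP. Both replicates carried the tagged allele and formed 1 group, so no genotypes, stages or treatments could be compared, and values of all cell types are summed. Precipitated chromatin does not measure expression of these genes or cutting of the receptors.

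Notch receptors are cut after a ligand binds them. An ADAM metalloprotease removes the part outside the cell, and gamma-secretase, whose catalytic subunit is a presenilin, then cuts within the membrane and frees the intracellular part. That part enters the nucleus, where it joins LAG-1 and the coactivator SEL-8 at target genes. In C. elegans the receptors are LIN-12 and GLP-1, and in the adult GLP-1 maintains the germline stem cells. A LAG-1 site was taken here as GTGGGAA or ATGGGAA on either strand.

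Each value is the signal that the authors' peak caller gave to an entry of a ranking between the replicates, in a unit that no header names. An entry, called a candidate here, belonged to a gene if its summit lay from 2000 bp upstream of the 5' end to the 3' end. Each candidate has a signal from both replicates together, a signal in replicate 1, a signal in replicate 2, and an irreproducible discovery rate (IDR). The IDR estimates what share of the entries ranked at least as well do not recur between replicates. A candidate with an IDR of 0.01 or below was called a peak. Sequencing depth cannot be read from these lists, and a signal has no counting interval. Spread is given as the signals in the 2 biological replicates, with their SD where a mean is given.

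None of the 7 genes had a peak. Over all protein-coding genes 312 had a peak, or 1.56%. At the looser IDR of 0.05, adm-4 was the 1 gene with a candidate, beside 1556 of all protein-coding genes (7.79%). The strongest signals at the 7 genes were, from high to low, 51.4 at adm-4, 43.6 at aph-2, 39.3 at sel-12, 36.0 at hop-1, 34.6 at sup-17, 28.8 at aph-1 and 26.9 at pen-2. The median over all protein-coding genes that held a candidate was 32.7. These counts and levels are descriptions, since 7 genes chosen by name allow no test here.

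The sequences under the strongest signals of adm-4 and sel-12 are shown beside those of a LAG-1 peak that holds sites. Each line gives 201 bases of the ce11 assembly centred on a summit, 5′ to 3′, with LAG-1 sites in capitals. The first is the strongest candidate of adm-4 at chrX:7796039-7796239, minus strand, in a coding exon, and the next the strongest upstream entry of adm-4 in the ranking of pooled reads, at chrX:7798425-7798625, plus strand. The third is the strongest candidate of sel-12, the higher of the presenilin genes, at chrX:917956-918156, plus strand. The last is the peak in an intron of lag-1 at chrIV:6097097-6097297, minus strand, shown as an example with sites, since most peaks held none.
adm-4 coding exon: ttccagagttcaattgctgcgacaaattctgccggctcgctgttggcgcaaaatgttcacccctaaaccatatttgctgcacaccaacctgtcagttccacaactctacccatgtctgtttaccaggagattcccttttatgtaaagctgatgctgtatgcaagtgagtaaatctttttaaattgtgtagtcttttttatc
adm-4 upstream, pooled: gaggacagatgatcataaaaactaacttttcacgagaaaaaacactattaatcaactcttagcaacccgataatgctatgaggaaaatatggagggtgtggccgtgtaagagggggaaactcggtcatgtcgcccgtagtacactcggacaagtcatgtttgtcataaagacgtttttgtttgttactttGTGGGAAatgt
sel-12 coding exon: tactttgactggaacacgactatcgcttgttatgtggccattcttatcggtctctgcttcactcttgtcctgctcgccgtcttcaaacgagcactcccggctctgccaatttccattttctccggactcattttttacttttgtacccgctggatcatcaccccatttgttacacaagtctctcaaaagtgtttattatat
lag-1 intron: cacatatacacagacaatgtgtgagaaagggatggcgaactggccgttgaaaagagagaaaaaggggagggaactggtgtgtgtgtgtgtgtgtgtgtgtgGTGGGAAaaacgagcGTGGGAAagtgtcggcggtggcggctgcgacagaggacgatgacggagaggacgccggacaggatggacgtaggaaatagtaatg

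The coding exon windows of adm-4 and sel-12 hold no LAG-1 site, and their GC contents are 41.8% and 44.3%. The upstream adm-4 window holds 1 site, near its 3′ edge. The lag-1 window holds 2 sites in the same orientation, 1 of them beside a run of alternating g and t, and has a GC content of 53.7%. The lag-1 peak reached 75.9, with an IDR of 0.00315 and replicate signals of 29.7 and 46.8. Such sites were rare at peaks too: 20 of 291 entries in the authors' conservative list of peaks held one (6.87%), beside 6.44% of all candidates, and the peaks of dos-3 and epn-1 held none.

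Among the ADAM genes, adm-4 had the strongest candidate of all 7 cleavage genes. ADM-4 is the homolog of mammalian ADAM17. The gene lies at X:7794875 to 7798298 on the minus strand, and the candidate at X:7796021 to 7796256, 2159 bp downstream of the 5' end in a coding exon. Replicate 1 gave 24.6 and replicate 2 gave 24.9, a mean of 24.8 ± 0.168 (SD, n = 2). The replicates differed by 1.01 times, and their summits lay 43 bp apart. The IDR was 0.0262, which misses 0.01, and the signal ranked 910 of 125458 candidates. In the ranking of pooled reads the signal was also 51.4, but the IDR was 0.168. Replicate 1's own ranking gave an IDR of 0.888, and replicate 2's own ranking held no overlapping entry. At the 7 genes no IDR in either replicate's own ranking was below 0.476, so 0.888 does not set this candidate apart.

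Other candidates of adm-4 were weaker. They numbered 5, with signals from 11.2 to 25.8, and all lay inside the gene. At the next strongest, in an intron 1027 bp downstream of the 5' end, replicate 1 had 16.4 and replicate 2 had 8.65. A site lay within 100 bp of that summit, and another near the candidate 1388 bp downstream (signal 11.6). These are the only LAG-1 sites near a summit of the replicate ranking at adm-4, and both read ATGGGAA. They lie at chrX:7797339-7797367 and chrX:7796986-7797014 on the minus strand and are shown with their flanks.
adm-4 intron: gagaggaaggtATGGGAAtttaacaaatt
adm-4 exon: tattctagaatATGGGAAgtggaacggtt

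The region upstream of adm-4 was described from other rankings. The replicate ranking used here holds no entry with a summit between X:7797271 and X:7808664, a stretch of 11393 bp that includes the 5' end of adm-4, and replicate 1's own ranking holds none between X:7796150 and X:7808827. Entries there may be missing from the copies used here, so the strongest candidate of adm-4, its location, its percentile and its lack of a site hold only for the entries analysed. In the ranking of pooled reads, an entry at X:7798407 to 7798642 had its summit 227 bp upstream of adm-4 and 424 bp beyond the 3' end of its neighbour gpx-7. Its signal was 58.9, with an IDR of 0.0129, and it ranked 401 of 124748 pooled entries. In replicate 2's own ranking an entry 233 bp upstream had 28.2, with an IDR of 0.876. The upstream entry was therefore higher than the exonic one in the pooled ranking and close to the IDR threshold without reaching it. No replicate 1 value was analysed there, so its spread between replicates is not known. The site in that window reads GTGGGAA, lies 320 bp upstream of adm-4 and was 93 bp from the pooled summit.

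The other ADAM gene, sup-17, showed no candidate that stood out. SUP-17 is the homolog of mammalian ADAM10 and acts with LIN-12 and GLP-1 in C. elegans. The gene lies at I:8792964 to 8797295 on the plus strand and held 9 candidates, with signals from 6.22 to 34.6. At the strongest, in a coding exon 1799 bp downstream of the 5' end (I:8794645 to 8794880), replicate 1 had 14.3 and replicate 2 had 17.1, with an IDR of 0.208. The lowest IDR, 0.144, belonged to a candidate 3512 bp downstream with a signal of 33.4 and replicate signals of 22.1 and 15.1. Replicates disagreed most at the candidate 376 bp downstream of the start, with 2.59 in replicate 1 and 11.8 in replicate 2, a difference of 4.56 times. The 2 weakest candidates share 1 entry of replicate 1 and are not independent. Of the 9 candidates, 1 lay upstream of the gene.

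Of the presenilin genes, sel-12 had the higher signal. SEL-12 is the main presenilin of the C. elegans soma, and its loss gives an egg-laying defect. The gene lies at X:915867 to 918290 on the plus strand, and its strongest candidate at X:917938 to 918173, 2189 bp downstream in a coding exon. Replicate 1 gave 20.9 there and replicate 2 gave 16.9, a mean of 18.9 ± 2.82 (SD, n = 2), with an IDR of 0.121. This summit was nearer to the 5' end of the neighbouring gene F35H12.5, at 341 bp, than to that of sel-12. A candidate 1444 bp downstream had a signal of 36.2, with 15.2 and 20.6 in the replicates.

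The replicates differed at the sel-12 promoter. The candidate 172 bp upstream of sel-12, at X:915577 to 915812, had a signal of 33.3, with 8.33 in replicate 1 and 26.8 in replicate 2. The second value was 3.21 times the first and was the highest of replicate 2 at any of the 47 candidates, and the IDR was 0.366. It was also in replicate 2's own ranking, with an IDR of 0.476, and was not in replicate 1's. No LAG-1 site lay within 100 bp of any of the 6 sel-12 candidates.

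At hop-1 the strongest candidate lay on the start of the gene. HOP-1 is a presenilin that overlaps SEL-12 in function. The gene lies at I:4208515 to 4210341 on the minus strand, and the summit was 4 bp downstream of its 5' end (I:4210219 to 4210454). Replicate 1 had 12.7 and replicate 2 had 20.4, a mean of 16.5 ± 5.42 (SD, n = 2), with an IDR of 0.209. This candidate was also in replicate 2's own ranking, with an IDR of 0.890, and was not in replicate 1's. The window of 3827 bp held 8 candidates, a count at percentile 96.3 among genes of similar span. Of these, 4 lay in the gene and 4 upstream of it, inside swsn-2.2. The largest IDR of the ranking, 0.683, was that of 6 of the 8. A site reading GTGGGAA lay 1181 bp upstream, in a coding exon of the neighbouring gene swsn-2.2. The candidate beside it had a signal of 20.5, with 14.1 and 8.16 in the replicates. That 14.1 was the highest signal of replicate 1 at hop-1, above the 12.7 at the start of the gene.

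Among the remaining subunits, aph-2 stood highest. APH-2 is nicastrin, the subunit known for recognising substrates of gamma-secretase. The gene lies at I:10340997 to 10345654 on the plus strand and held 10 candidates, the most of the 7 genes. The strongest, at I:10340321 to 10340556, was 558 bp upstream of aph-2, inside a coding exon of ears-1, which encodes a glutamyl-tRNA synthetase. Its signal was 20.0 in each replicate, with a gap of 14 bp between the summits and an IDR of 0.0898. Because that exon belongs to ears-1, the candidate cannot be assigned to either gene by position. Within aph-2 the strongest candidate lay 3468 bp downstream in a coding exon, with a signal of 37.3 and replicate signals of 13.5 and 24.8.

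The smallest signals were those of aph-1 and pen-2, whose products are needed to assemble gamma-secretase. The gene aph-1 lies at I:9232068 to 9233560 on the minus strand. Its strongest candidate was 966 bp downstream of the 5' end in a coding exon, with 10.8 in replicate 1, 18.2 in replicate 2 and an IDR of 0.281. The gene pen-2 lies at III:11343322 to 11344147 on the plus strand, and its strongest candidate was 661 bp downstream in a coding exon. Replicate 1 had 15.8 there and replicate 2 had 10.5, with an IDR of 0.321. A candidate 363 bp upstream of pen-2, inside T28D6.6, had a lower signal, 22.0, but a smaller IDR, 0.233, with 15.5 and 14.3 in the replicates. Neither window held a LAG-1 site.

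**Figure D1:**
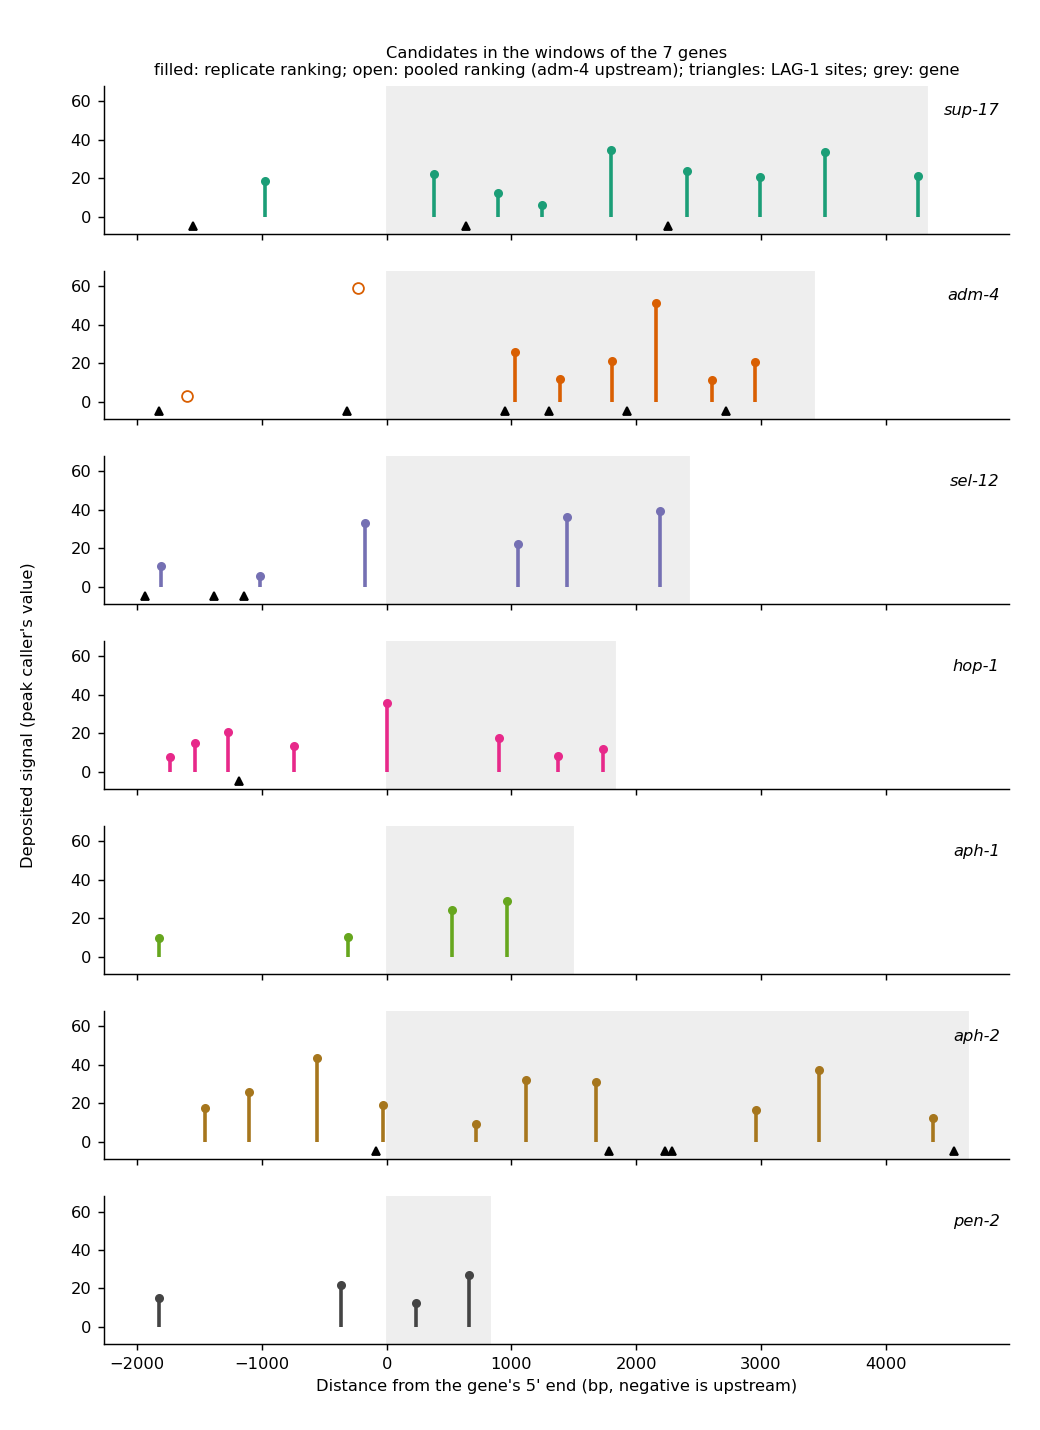
Signal of each candidate (peak caller's value, vertical axis) by distance of its summit from the 5' end of the gene (bp, horizontal axis, negative upstream) for the 7 genes. Filled points are the replicate ranking, open points the pooled entries upstream of adm-4, triangles LAG-1 sites, and grey the annotated gene. The strongest filled point is at 51.4 in adm-4, and the open point at 58.9 lies 227 bp upstream of the same gene.

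The replicates separated few neighbours in the order of the 7 genes. Between adm-4 and aph-2 the replicate signals at the strongest candidates did not overlap, at 24.6 to 24.9 against 20.0. This holds for the candidates with the strongest signal only. A different candidate of aph-2, 3468 bp downstream, had 13.5 in replicate 1 and 24.8 in replicate 2. Every other pair of neighbours in the order overlapped, although genes further apart in it, such as aph-2 at 20.0 and pen-2 at 10.5 to 15.8, did not. An example of overlap was sel-12 at 16.9 to 20.9 with hop-1 at 12.7 to 20.4. Ordered by the highest signal in replicate 1 alone, adm-4 came first with 24.6, sup-17 next with 22.1 and hop-1 last with 14.1. By the highest signal in replicate 2 within the replicate ranking, sel-12 came first with 26.8 and adm-4 next with 24.9. In replicate 2's own ranking the upstream entry put adm-4 first, with 28.2 against 26.8 for sel-12.

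Longer genes hold more candidates, so each strongest signal was set beside the 500 protein-coding genes of nearest span. The signal of adm-4 was at percentile 95.6, above the 90th percentile of its comparison genes at 45.6. The others were at percentile 81.9 for aph-2, 76.2 for sel-12, 73.2 for hop-1, 51.6 for sup-17, 46.8 for aph-1 and 37.8 for pen-2. The median over the 7 was 73.2, and 5 of 7 were at or above 50, of which sup-17 fell to 49.3 when genes with no candidate were left out. Of the 500 genes of similar span, 9 had a peak for adm-4 and 52 a candidate at an IDR of 0.05 or below, or 10.4%. For the other 6 genes between 17 and 51 of 500 had such a candidate, and between 3 and 13 had a peak.

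The percentiles moved with the replicate. Ranked by the highest signal in replicate 1 and in replicate 2, adm-4 was at 87.2 and 84.2. The percentile of hop-1 was 30.8 in replicate 1 and 70.8 in replicate 2, that of sel-12 was 69.0 and 92.6, and that of aph-2 was 56.2 and 81.4. For sup-17 the order was the other way, with 73.3 and 52.4. The values for aph-1 were 54.2 and 57.8, and those for pen-2 were 48.4 and 36.4. Only adm-4 was above 80 in both replicates.

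**Figure D2:**
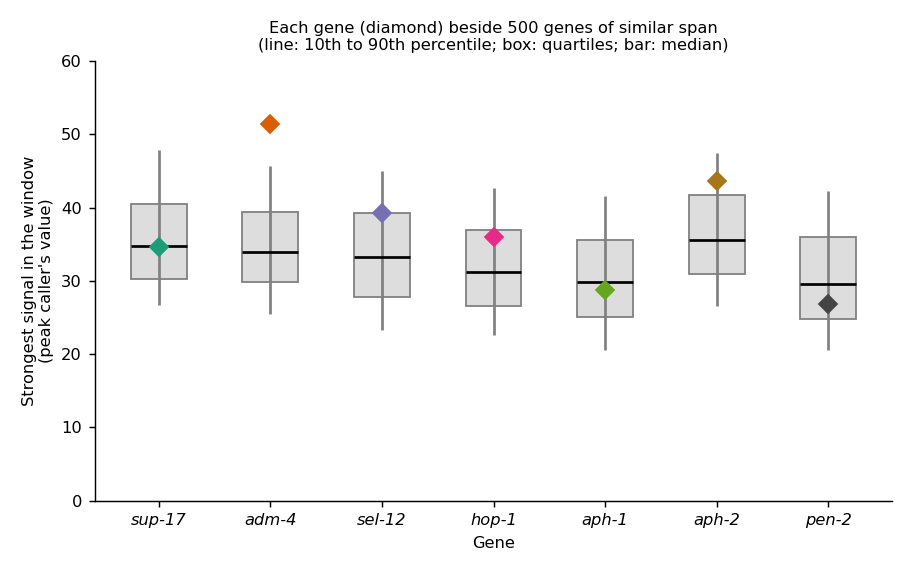
Strongest signal in the window of each gene (diamond, peak caller's value, vertical axis from 0) beside the 500 protein-coding genes of nearest span, drawn as the 10th to 90th percentile (line), the quartiles (box) and the median (bar) of those with a candidate. The diamond of adm-4, at 51.4, is the only one above its line, and those of sup-17, aph-1 and pen-2 are below the median of the genes that held a candidate.

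Across the 7 genes, the 47 candidates resembled the ranking as a whole in signal and IDR. Their signals ran from 5.53 to 51.4 with a median of 20.5, beside a median of 19.4 over all 125458 candidates. The median in replicate 1 was 9.77 against 10 for all candidates, and in replicate 2 it was 11.6 against 10.6. At an IDR of 0.05 or below there was 1 of 47, beside 1.37% of all candidates. At 0.2 or below there were 7 of 47 (14.9%), beside 10.6%, and they belonged to sup-17, adm-4, sel-12 and aph-2. The largest IDR, 0.683, was shared by 19 of 47 (40.4%) and by 40.4% of all candidates.

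Replicate signals differed by more than 2 times at 12 of the 47 candidates (25.5%), beside 32.7% of all candidates. The median difference between replicates was 1.47 times at the 47 and 1.60 times over all. In the authors' conservative list, whose 291 entries passed the IDR threshold, it was 1.23 times. Replicate 2 was the higher at 24 of 47. The median gap between the replicates' summits was 55 bp, beside 61 bp for all candidates and 29 bp in the conservative list. Across the 47 candidates, which share both libraries and are not replicates of each other, the replicate signals had a Spearman rho of 0.412, beside 0.222 over all candidates.

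**Figure D3:**
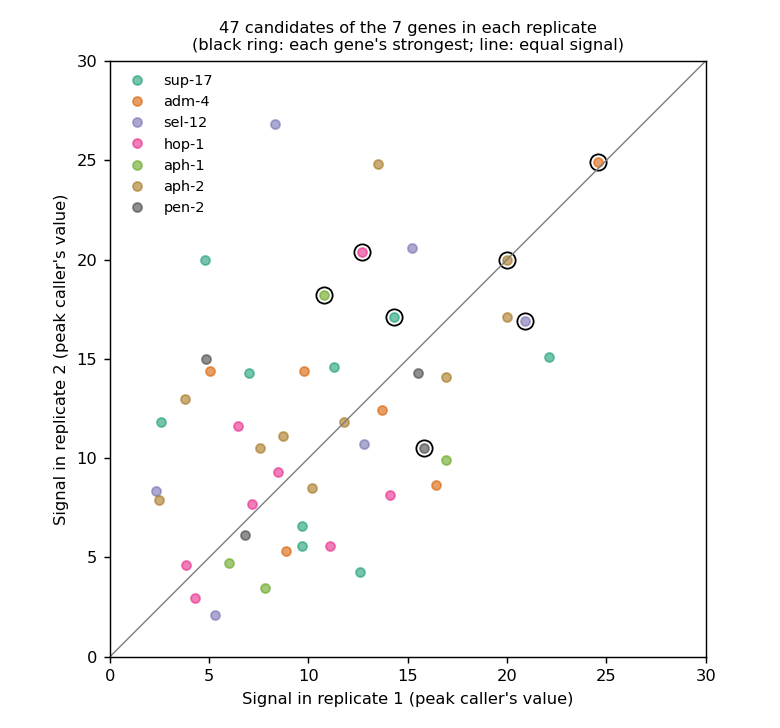
Signal in replicate 1 (horizontal axis) and in replicate 2 (vertical axis, both the peak caller's value) of the 47 candidates, coloured by gene. Black rings mark the strongest candidate of each gene and the line marks equal signal. The ringed adm-4 point, at 24.6 and 24.9, and the ringed aph-2 point, at 20.0 in both, lie near the line, and the sel-12 promoter point, at 8.33 and 26.8, lies far above it.

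The candidates lay mainly in coding sequence, a feature that the choice of genes did not use. Of the 47 summits, 31 were in a coding exon of some gene (66%), beside 41.1% of the 19489 candidates in the windows of genes of similar span and 30.4% of all candidates. In the conservative list the share was lower, at 52 of 291 entries (17.9%). By gene this ran from 1 of 4 at aph-1 to 8 of 10 at aph-2. How much of each window is coding sequence was not computed, so these shares are not set against it. Counted within the cleavage genes themselves, 23 summits were in a coding exon, 7 in an intron and 1 in a 3' UTR, and 16 were upstream. Other annotated genes held 13 of the summits. The strongest candidate was downstream of the 5' end at 6 of 7 genes, aph-2 being the exception. Median GC content was 38.3% around these summits, 37.8% for all candidates and 46.8% in the conservative list.

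LAG-1 sites were found at few candidates. A site lay within 100 bp of the summit at 4 of 47 candidates (8.51%), 2 at adm-4, 1 at hop-1 and 1 at aph-2, beside 6.44% of all candidates. None of the 7 strongest candidates held one, beside 6.83% of the strongest candidates of all protein-coding genes. In their whole windows the genes held 18 sites, of which 6 were at adm-4, 5 at aph-2, 3 at sup-17, 3 at sel-12 and 1 at hop-1. The count at adm-4 was at percentile 99.4 of the genes of similar span, whose median was 1 site, and that at aph-2 was at 95. A match is a description of the sequence, and a window without one says only that these letters are not in it.

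Other genes of the pathway reached higher signals than the cleavage genes in a few places. They came in 7 lists of 39 genes in all, of which 3 had a peak and 6 a candidate at an IDR of 0.05 or below. Over all protein-coding genes the shares were 1.56% and 7.79%. These counts were not matched for span. Of the 3 genes with a peak, lag-1 spans 15249 bp, dos-3 3841 bp and epn-1 2717 bp, beside 826 to 4658 bp for the 7 cleavage genes. Whether the lists differ from the 7 genes was not tested. The median strongest signal of the 39 was 36.3, at a median percentile of 57.4. For the presenilin-like proteases, with 0 of 4 genes past 0.05, the highest was spe-4, a presenilin of sperm, at 36.3 with 17.9 and 22.0 in the replicates. Among the other ADAM and ADAMTS proteases the highest signal was 45.8 at adm-2, with 17.3 and 29.3 in the replicates and an IDR of 0.0642. A different candidate of adm-2, with an IDR of 0.0458, made it the 1 of 7 that passed 0.05. Of the tetraspanins, membrane proteins of which some act with SUP-17, tsp-14 was the 1 of 3 that passed, at 50.5 with an IDR of 0.0314 and replicate signals of 21.7 and 27.0.

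The genes that act beside the cleavage step were also mixed. None of 5 suppressors of presenilin, found in C. elegans because their loss bypasses the need for sel-12, passed 0.05, and spr-3 was the highest at 43.2, with 25.2 and 15.1 in the replicates. Of the receptors and their nuclear complex, lag-1 alone of 4 had a peak. None of 10 DSL ligands passed 0.05, and the highest was lag-2, the ligand of GLP-1 in the germline stem cell niche, at 40.8 with 18 in replicate 1 and 17 in replicate 2. Of the DOS co-ligands and epsin, 2 of 6 had a peak. These were dos-3 at 79.9, with 34.5 and 46.1 in the replicates, and epn-1, which encodes epsin, a protein of endocytosis, at 69.6 with 37.2 and 28.4. Each replicate signal at lag-1, dos-3 and epn-1 was above 26.8, the highest signal of either replicate at any of the 47 candidates. The upstream entry of adm-4 is not among the 47. It had 28.2 in replicate 2's own ranking, with an IDR of 0.876, and no replicate 1 value was analysed. In replicate 2 the peak genes had 28.4 at epn-1, 46.1 at dos-3 and 46.8 at lag-1.

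As references for GLP-1 signalling, sygl-1 and lst-1 gave unlike values. The gene sygl-1, a target of GLP-1 in germline stem cells, had a peak 34 bp downstream of its start with 52.6 in replicate 1, 42.3 in replicate 2 and 4 LAG-1 sites. The strongest candidate of lst-1, a target that acts with it, was 181 bp upstream and also held 4 sites, but had 17 in replicate 1, 16.1 in replicate 2 and an IDR of 0.180. Its signal of 29.2 was below that of 5 of the 7 cleavage genes. With 1 condition in the study, no likeness of patterns between genes was computed.

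**Figure D4:**
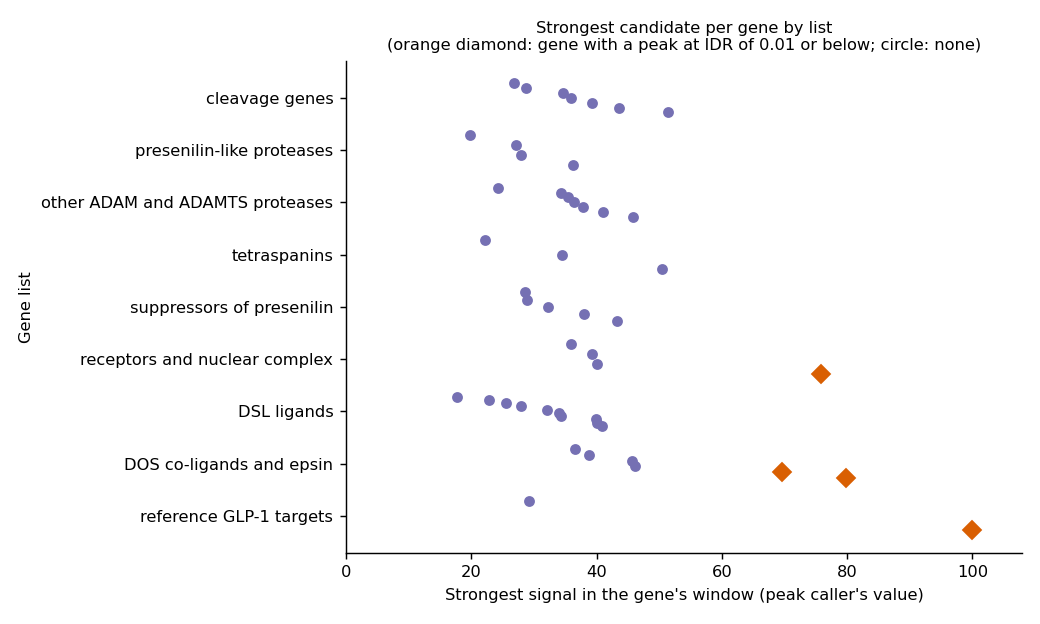
Strongest signal in the window of each gene (peak caller's value, horizontal axis from 0) by list, with the 7 cleavage genes in the first row. Orange diamonds are genes with a peak and circles genes without. The cleavage genes run from 26.9 to 51.4, below the diamonds of epn-1 at 69.6, lag-1 at 75.9, dos-3 at 79.9 and sygl-1.

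Values just inside and outside the windows showed that the 2000 bp limit and the gene ends matter for some genes. Downstream of hop-1, 247 bp beyond its 3' end, a candidate outside the window had a signal of 39.3, above the 36.0 of the strongest inside. Beyond the 3' end of pen-2 a candidate at 708 bp had 37.7, against 26.9 inside, and beyond that of adm-4 one at 82 bp had 36.5. Upstream of sel-12 a candidate 530 bp outside the limit had 40.9, close to the 39.3 inside. None of these had an IDR of 0.05 or below, the smallest being 0.111 at hop-1.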

How the data were processed

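LAG-1 ChIP-seq was analysed from peak lists of 2 biological replicates on ce11. Per the deposited notes, the authors made them from precipitated and control reads. The sources used here do not name the aligner or peak caller. The deposited signal is the authors' peak caller value per entry, and the deposited −log10 values give the global IDR. The lists compared in the replicate ranking are the replicates: of replicate 1's own entries 86.5% occur in the first list and 0 in the second, and of replicate 2's 83.8% in the second and 0 in the first.

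Summits were assigned to genes of Ensembl release 115, and sequence came from NCBI WBcel235, which is ce11. Genes of similar span were the 500 other protein-coding genes nearest in span, and the 918 genes (4.60%) with no candidate counted as weakest. No test was made: there is 1 group, and percentiles are descriptions. The members and lists were chosen with earlier results of these data known. Named were the 7 genes, the strongest gene of each list, any with a peak, sygl-1, lst-1, and a gene whose 5' end was nearest to a member's strongest candidate. Other neighbours (gpx-7, swsn-2.2, ears-1 and T28D6.6) were named after their values were seen, to say where a candidate lies. Alternatives covered windows, rankings, thresholds, comparison genes and site definitions. Scripts were tested on simulated data and ran in Python 3.11.15 with matplotlib 3.10.9, pandas 2.3.3, NumPy 2.4.6 and SciPy 1.17.1.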

Additional observations from a re-analysis of the deposited data

How the results depend on the processing

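No paired analysis was possible because the study has 1 group. The median percentile of the 7 genes, 73.2, stayed within 10.3 of itself, its SD between replicates, in 12 of 13 alternatives. Some of these alternatives could move it little. The pooled ranking gives the same strongest signal at each of the 7 genes but adm-4. Removing the entries left out of the conservative list removes none at the 7 genes. With 1 replicate left out the median percentile ranged from 55.5 to 70.6. The count of genes with a peak, 0, was 1 at an IDR of 0.05 and 0 in the other 9 alternatives. Several of these could give only 0, because they keep a part of the entries already counted. They were the shorter upstream windows, the IDR of 0.005 and the conservative list. The count of strongest candidates with a LAG-1 site, 0, was 1 within 250 bp of the summit, 1 in the pooled ranking, and 0 to 1 with 1 replicate left out. Over 91 percentiles of single genes under alternatives, 71 moved by less than the gene's own SD between replicates. That SD ran from 2.12 at adm-4 to 28.3 at hop-1. A gene whose replicates disagreed more could therefore move further and still be counted, so the tally does not rank the genes by stability. The percentile of adm-4 fell to 21.4 for windows of 2000 bp either side of the 5' end, which leave out its strongest candidate. The same percentile rose to 97.6 in the pooled ranking, where the strongest entry of adm-4 was the upstream one at 58.9. Without replicate 1 the percentile was 92.0, again from an upstream entry, at 28.2. That of hop-1 ran from 20.4 without replicate 2 to 84.4 with 500 bp upstream, that of aph-1 from 19.8 without replicate 2 to 63.0 and that of pen-2 from 27.0 to 75.2. For sup-17 the range was 47 to 73.5, for sel-12 68.2 to 92.2 and for aph-2 55.5 to 88.6. Comparison genes on the same chromosome, and leaving out genes with no candidate, were alternatives chosen after seeing the data. Depth is unknown, so a candidate that misses the threshold is not shown to be unbound.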
